A study of Mus musculus with 64 samples.

Results

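Spp1, the gene of the secreted phosphoprotein osteopontin, was followed through the adult life of female and male mouse microglia and after a challenge with lipopolysaccharide. It was 1 of the 5647 genes in the expression table. The gene was chosen by its measured values: they were already known to differ between ages and between challenged and control mice, and other genes were known to vary with it inside groups. Its levels by age, its levels after the challenge and its correlations are therefore given as a description with no test. Tests were kept for the age difference among challenged mice and for the sexes at matched ages. These contrasts did not choose the gene, but their values entered those that did, so their p-values are not independent of the choice. Differences between age groups in the response, and between the sexes in the change with age, are built directly from the contrasts that picked the gene. They are given with no test.

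Osteopontin is a matricellular protein: it sits in the extracellular matrix without building it, and signals through CD44 and through integrins that recognize its cell-binding motif. It is cut by thrombin and by matrix metalloproteinases, cross-linked by transglutaminases, and was first known from bone and from activated macrophages and T cells. In the brain it is a hallmark of the microglial state found around amyloid plaques, in demyelinated white matter and in the early postnatal brain.

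The data were RNA-seq values of microglia from the brains of wild-type (WT) C57BL/6J mice, sorted as CD11b+ CD45low cells, in 64 libraries of 17 groups. In 26 libraries the mice were female and given PBS, at 3 (n = 4), 6 (n = 2), 9 (n = 3), 12 (n = 4), 14 (n = 5), 16 (n = 5) and 24 months (n = 3). In 27 libraries they were male and given PBS, at 3 (n = 4), 6 (n = 4), 9 (n = 4), 12 (n = 2), 16 (n = 4), 19 (n = 5) and 24 months (n = 4). The other 11 libraries came from females given lipopolysaccharide (LPS), a component of bacterial outer membranes, at 0.5 mg per kg into the peritoneum 2 h before tissue was taken, at 3 (n = 3), 14 (n = 5) and 24 months (n = 3). No males were given LPS, so nothing is said of their response.

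Values are batch-adjusted FPKM (fragments per transcript length and library size). All but 297 values are whole numbers, and they are on a scale per transcript length. The reads behind them are unknown. Library totals of these values ran from 408457 to 554459. In 21 libraries no gene had a value between 0 and 1: these were all F_16, M_12, M_16 and M_24 libraries, 2 of 4 M_03 and 4 of 5 M_19 libraries (F_ and M_ with the age in months name the female and male groups). This feature went with age among males, and values of Spp1 within 1 kind of library are given beside its male results. For the other genes and the list counts no values within 1 kind were taken. Age and kind of library are therefore not separated in their male results. It also set all F_16 libraries apart from all other female libraries. Age and kind of library therefore cannot be told apart in any comparison of F_16 with other females. All 11 microglia markers used, such as P2ry12, Tmem119 and Cx3cr1, were in the table, with summed levels of 10482 to 21570 in every library. Markers of other cells were there too: 14 of 15 for neutrophils (sums of 499 to 32279), 7 of 9 for monocytes (64 to 1439) and 4 of 12 for T and NK cells (31.31 to 612), Cd3e, Cd3d and Ly6g being among those not in the table. All 10 border macrophage markers were in the table, with sums of 267 to 885.

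Spp1 lies on the plus strand of mouse chromosome 5, at chr5:104435118-104441050 of GRCm38 in GENCODE vM21, which lists 7 coding transcripts of 4 to 8 exons. RefSeq gives it 2 starts, at 104435111 and 104436192. The 250 bases before the upstream start, chr5:104434861-104435110 of GRCm38.p6, are shown because the levels of several factors linked to Spp1 transcription are compared further on. The capitals mark, in order, a match to the RUNX motif ACCACA, to the PU.1 motif GAGGAAGT and to the E-box CANNTG, which do not overlap.
Spp1 upstream region: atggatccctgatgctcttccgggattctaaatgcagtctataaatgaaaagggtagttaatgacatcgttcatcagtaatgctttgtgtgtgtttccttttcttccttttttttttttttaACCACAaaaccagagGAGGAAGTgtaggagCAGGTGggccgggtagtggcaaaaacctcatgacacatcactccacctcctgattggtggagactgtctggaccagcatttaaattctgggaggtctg
The RUNX match begins 128 bases before the start, the PU.1 match 113 and the E-box 98 bases before it. Searched on both strands, the same lengths of sequence before 32544 RefSeq starts held the RUNX motif in 14.0%, the PU.1 motif in 2.46% and the E-box in 66.2% of cases. The AP-1 motif TGANTCA, held by 6.73%, was not in these letters. The region of that length before the downstream start held 2 E-boxes and none of the other motifs. A match describes the sequence and does not show that a factor binds it.

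In females given PBS, Spp1 was low at 3 and 6 months and high from 12 months on. The 3-month mice were at 17, 14, 25 and 15, and the 6-month mice at 22 and 23, inside the 3-month range. At 9 months the values were 25, 34 and 136, so that 1 mouse of 3 already stood at the level of older animals and the lowest equalled the highest 3-month mouse. At 12 months they were 115, 132, 59 and 99, all above every mouse of 3 and 6 months.

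The older female groups had higher means, but at 14 and 16 months the mice were very uneven. At 14 months they were at 285, 50, 505, 162 and 177. At 16 months they were at 72, 61, 571, 434 and 361, so that 2 mice lay among the 12-month values and 3 lay far above them. At 24 months the values were 301, 441 and 359, close together and all above every female of 3 to 12 months.

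The female group means were 17.8 ± 4.99 (SD, n = 4) at 3 months, 22.5 ± 0.707 (SD, n = 2) at 6, 65 ± 61.7 (SD, n = 3) at 9, 101 ± 31.2 (SD, n = 4) at 12, 236 ± 172 (SD, n = 5) at 14, 300 ± 226 (SD, n = 5) at 16 and 367 ± 70.3 (SD, n = 3) at 24 months. Against the 3-month mean these were ratios of 1.27, 3.66, 5.70, 13.3, 16.9 and 20.7. Spp1 went from the 4072nd highest mean level of the 5647 genes at 3 months to the 172nd at 24 months. In a single fit of the 7 female groups, on the scale of log2(value + 1), the difference from 3 months was 3.52 at 16 months (standard error 0.59, 95% interval 2.31 to 4.73) and 4.31 at 24 months (standard error 0.67, 95% interval 2.94 to 5.69). The second was the largest increase of any gene in that comparison, and all F_03 and F_24 libraries were of the kind that held values between 0 and 1. All F_16 libraries were of the other kind, so age and kind cannot be told apart in the first difference. In bulk values of this kind, more cells that hold the transcript and more transcript per cell cannot be told apart.

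Males given PBS showed a flat stretch and then high values. They were at 20, 41, 29 and 35 at 3 months, at 21, 28, 29 and 24 at 6 months, and at 9, 31, 37 and 9 at 9 months. The 9-month group held the lowest values of the series, in 2 of 4 mice. The 12-month mice, at 40 and 74, overlapped the 3-month range by the lower of the pair.

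From 16 months every male was above every male of 3 to 9 months. The values were 211, 117, 221 and 377 at 16 months, 152, 197, 261, 204 and 114 at 19 months, and 371, 344, 50 and 133 at 24 months. The 24-month group was the widest of these, with 1 mouse at 50, below the higher 12-month mouse.

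The male means were 31.3 ± 8.96 (SD, n = 4), 25.5 ± 3.70 (SD, n = 4), 21.5 ± 14.6 (SD, n = 4), 57 ± 24.0 (SD, n = 2), 232 ± 108 (SD, n = 4), 186 ± 55.7 (SD, n = 5) and 225 ± 158 (SD, n = 4) at the 7 ages in the same order. Ratios to the 3-month mean were 0.816, 0.688, 1.82, 7.41, 5.94 and 7.18. On the log2 scale the difference from 3 months was 2.78 at 16 months (standard error 0.48, 95% interval 1.79 to 3.76) and 2.46 at 24 months (standard error 0.48, 95% interval 1.48 to 3.45). These were the 18th and the 9th largest increases of the 5647 genes. The 2 M_03 libraries with no value between 0 and 1, the kind that made up all of M_16 and M_24, had Spp1 at 20 and 41. Within that kind of library alone the log2 difference from 3 months was 2.85 at 16 months and 2.53 at 24 months.

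**Figure D1:**
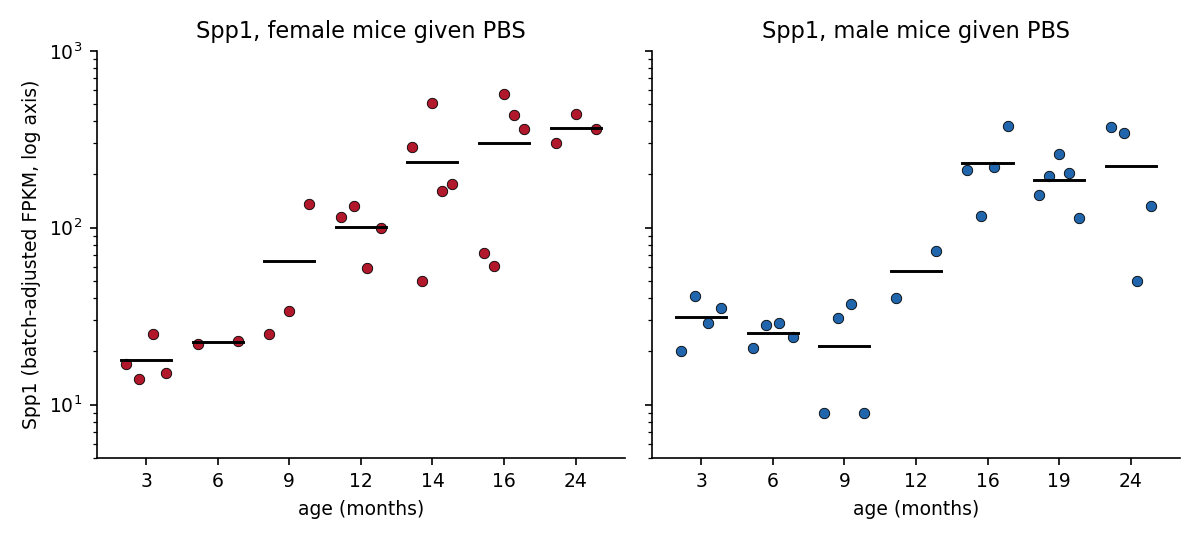
Spp1 in batch-adjusted FPKM (log axis) against age in months for females (left) and males (right) given PBS, with 1 point per mouse and a line at each group mean. Female values spread from 25 to 136 at 9 months and from 61 to 571 at 16 months, whereas males of 3 to 9 months were at 41 or less and males of 16 to 24 months at 50 or more.

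Markers of other cells also stood at other levels in the old groups. The summed T and NK cell markers ranged from 48 to 57 in F_03 and from 249 to 376 in F_24, and from 48 to 78 in M_03 and from 205 to 507 in M_24. The summed monocyte markers ranged from 248 to 632 in F_03 and from 186 to 715 in F_24, and from 184 to 279 in M_03 and from 442 to 762 in M_24. The summed border macrophage markers overlapped between these ages. They ranged from 622 to 759 in F_03 and from 623 to 859 in F_24, and from 631 to 885 in M_03 and from 482 to 866 in M_24. The summed neutrophil markers ranged from 7034 to 18659 in F_03 and from 3236 to 8549.9 in F_24, and from 2851 to 4751 in M_03 and from 5706 to 10616 in M_24. Their part in the Spp1 values was not tested. The microglia markers summed to between 19712 and 21570 in F_03 and to between 13409 and 15223 in F_24.

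Mice of a group differed in Spp1 more than in all but 43 of the genes. The SD within groups, pooled over the 17 groups with 47 residual degrees of freedom, was 0.90 on the log2 scale. It ranked 44th of 5647 genes, and the median gene had 0.32. By group, the ratio of the highest to the lowest mouse was 10.1 in F_14, 9.36 in F_16 and 7.42 in M_24, against 1.47 in F_24, 1.79 in F_03 and 1.38 in M_06. The SD between the 17 group means was 1.41, the 8th largest, with a median gene at 0.23.

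With both treatments included, the order of the group means from the lowest was F_03, M_09, F_06, M_06, M_03, M_12, F_09, F_03 with LPS, F_12, F_14 with LPS, M_19, M_24, M_16, F_14, F_24 with LPS, F_16 and F_24. All 16 pairs of neighbours in this order overlapped in range, and in 0 of 16 did the means differ by more than both SDs added. Since the groups were sorted by these means, small steps between neighbours follow from the sorting, and the order is a description.

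The sexes were compared at each shared age in a fit of the 12 female and male PBS groups of 6 ages, and in that fit Spp1 passed the threshold (adjusted p under 0.05 and over 1.5-fold) at none of them. At 3 months males were higher by 0.77 on the log2 scale (standard error 0.58, limma adjusted p = 0.515), with 13 of 5647 genes called (0.23%). The difference passed when these 2 groups were fitted alone (limma adjusted p = 0.0403). Values of both groups entered those that chose the gene, so these p-values are not independent of the choice. At 9 months males were lower, with a difference of -1.42 (standard error 0.62, 95% interval -2.68 to -0.16, limma adjusted p = 0.241), where 70 genes were called (1.24%). At 24 months the difference was -1.08 (standard error 0.62, 95% interval -2.34 to 0.18, limma adjusted p = 0.418), where 5 genes were called (0.0885%). No M_12 or M_24 library held a value between 0 and 1, and all F_12 and F_24 libraries did. Sex and kind of library cannot be told apart at 12 and 24 months.

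The differences at the remaining ages did not pass either. They were 0.16 at 6 months (standard error 0.70, limma adjusted p = 0.934), -0.82 at 12 months (standard error 0.70, limma adjusted p = 0.806) and 0.03 at 16 months (standard error 0.55, limma adjusted p = 0.992), where 9 (0.159%), 0 (0%) and 14 genes (0.248%) were called. At 12 months, where no gene was called, 342 genes had an unadjusted p under 0.05 and passed the fold. At 16 months the male mean was the lower, 232 against 300, although the mean of the logs was nearly equal. As a description, the male minus the female change from 3 to 24 months was -1.85 on the log2 scale (standard error 0.85). It includes the 24-month groups, whose kinds of library differed between the sexes. The intervals of the sex differences were wide, so that sex differences of over 2-fold in either direction were not excluded at 6 and 16 months.

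LPS was given at 3, 14 and 24 months to ask whether microglia of different ages answer an inflammatory challenge alike. In 3-month females Spp1 was at 45, 82 and 104 after LPS, all above the 4 PBS mice at 14 to 25. The mean of 77 ± 29.8 (SD, n = 3) was 4.34 times the PBS mean, and on the log2 scale the difference was 2.01 (standard error 0.56, 95% interval 0.86 to 3.16), the 34th largest increase.

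At 14 months the values after LPS were 39, 171, 102, 96 and 101, with a mean of 102 ± 46.8 (SD, n = 5) that was 0.432 times the PBS mean. The ranges overlapped, but 4 of 5 LPS mice were below 4 of 5 PBS mice, with the fifth LPS mouse, at 171, between PBS mice at 162 and 177. The log2 difference was -0.99 (standard error 0.46, 95% interval -1.94 to -0.03). At 24 months the LPS mice were at 229, 476 and 81, a mean of 262 ± 200 (SD, n = 3) that was 0.714 times the PBS mean, and 1 of them was above all 3 PBS mice. The log2 difference was -0.81 (standard error 0.60, 95% interval -2.04 to 0.43). It rested on single mice, being -0.13 without the LPS mouse at 81 and -1.40 without the one at 476.

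The summed T and NK cell markers were at 48 to 57 in the PBS and 173 to 278 in the LPS libraries at 3 months, at 109 to 333 and 143 to 346 at 14 months, and at 249 to 376 and 75 to 250 at 24 months. The summed monocyte markers were at 248 to 632 and 269 to 461 at 3 months, at 164 to 463 and 132 to 750 at 14 months, and at 186 to 715 and 419.03 to 998 at 24 months. Those of border macrophages were at 622 to 759 and 610 to 687, at 338 to 597 and 267 to 439, and at 623 to 859 and 514 to 793. The summed neutrophil markers were at 7034 to 18659 in the PBS and 2216 to 3822 in the LPS libraries at 3 months, where the ranges did not overlap, at 2313 to 6550 and 2031 to 4367 at 14 months, and at 3236 to 8549.9 and 4102 to 16178 at 24 months. Their part in the Spp1 values was not tested.

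**Figure D2:**
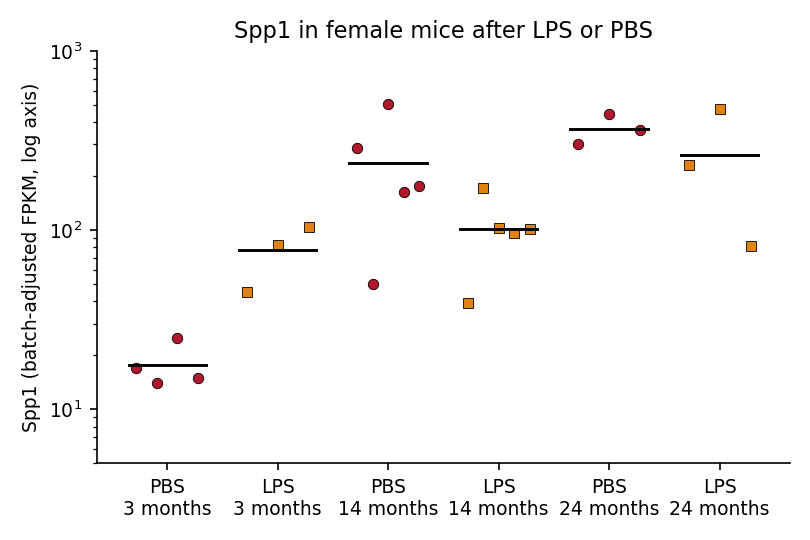
Spp1 in batch-adjusted FPKM (log axis) in females of 3, 14 and 24 months after PBS (circles) or LPS (squares), with 1 point per mouse and a line at each group mean. LPS and PBS mice did not overlap at 3 months and did at 14 and 24 months.

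The response at 14 months minus that at 3 months was -3.00 on the log2 scale (standard error 0.73), the largest such drop of the 5647 genes. Without the F_14 PBS mouse at 50 it was -3.46, and without the one at 505 it was -2.63. The response at 24 months minus that at 3 months was -2.82 (standard error 0.82), with -2.14 without the F_24 LPS mouse at 81. Both describe values by which the gene was chosen.

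The age differences were then taken among LPS-treated females alone, which had no part in the age comparison of PBS mice. Their values did enter the LPS comparisons by which the gene was chosen. LPS-treated 14-month mice were above 3-month mice by 0.34 on the log2 scale (standard error 0.54, 95% interval -0.77 to 1.44, limma adjusted p = 0.842), where 4 genes were called (0.0708%). Without the 3-month LPS mouse at 45 this difference was -0.0032. At 24 months the difference was 1.50 (standard error 0.60, 95% interval 0.26 to 2.73, limma adjusted p = 0.502), where 2 genes were called (0.0354%). Neither passed, and the ranges of the LPS groups overlapped at all 3 ages.

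**Figure D3:**
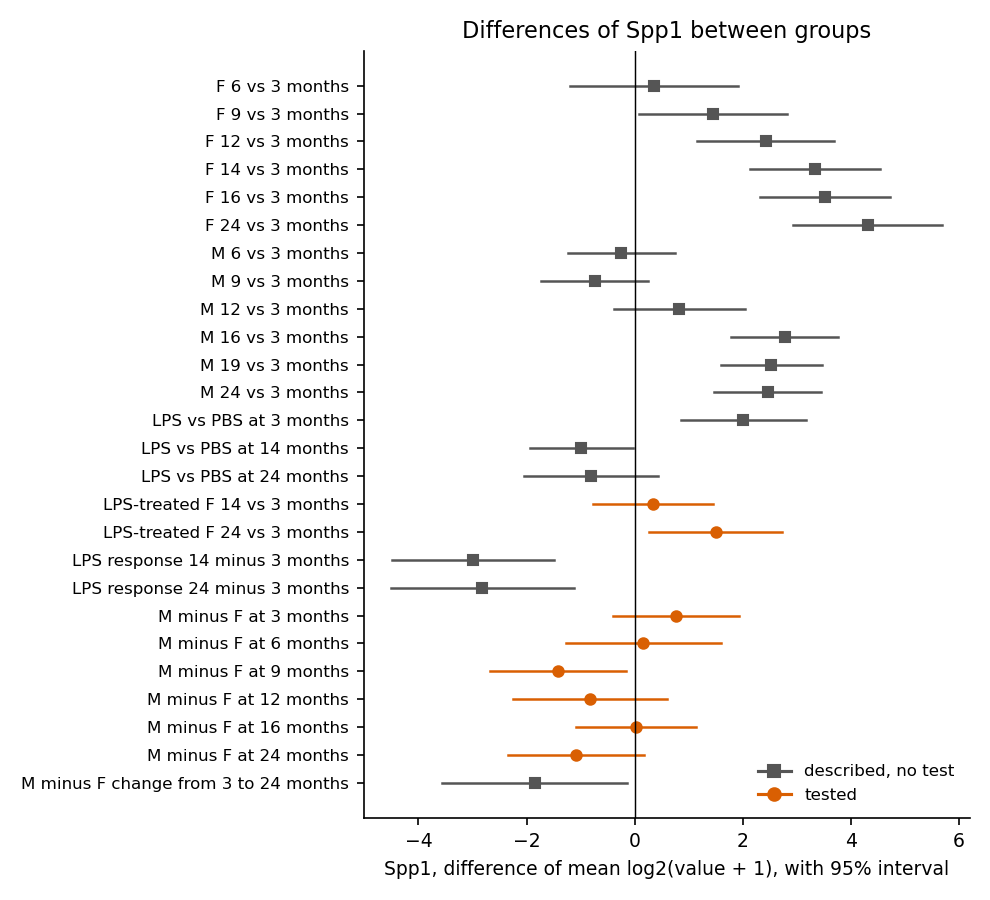
Differences of Spp1 between groups in mean log2(value + 1), with 95% intervals from limma, for each comparison named at the left. Squares are described without a test and circles were tested. The female increase at 24 months (4.31) and the drop in LPS response from 3 to 14 months (-3.00) lie furthest from 0 on either side.

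Other genes came from lists of osteopontin receptors, processing enzymes, related matrix proteins, signalling proteins and transcription factors. A further list held disease-associated microglia genes, and 81 of the 127 listed genes were in the table. Of the 81, 16 passed in F_16 against F_03, 12 higher and 4 lower, where 9.01% of all genes passed (3.01% higher and 6% lower). The libraries of F_16 and F_03 also differed in kind, as given above. In F_24 against F_03 8 passed, all higher, where 2.09% of all genes passed (1.56% higher and 0.531% lower). This count depended on single libraries: it was 5 or 4 without F_03 PBS replicates 1 or 2, 4 or 3 without F_24 PBS replicates 1 or 2, and 6 to 11 without 1 of the others, and it was 20 when these 2 groups were fitted alone. In M_16 against M_03 23 passed, 20 higher and 3 lower, where 6.29% of all genes did (4.52% higher and 1.77% lower). In M_24 against M_03 17 passed, 16 higher and 1 lower, where 2.85% of all genes did (2.73% higher and 0.124% lower). The disease-associated list, chosen with results of these data known, held 10 of these calls in F_16, 13 in M_16 and 12 in M_24. In F_24 it held all 8, and each other list had 0.

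After LPS at 3 months 16 list members passed, 12 higher and 4 lower, beside 11.2% of all genes (6.16% higher and 5.08% lower). At 14 months 1 passed, higher, beside 1.81% of all genes (1.4% higher and 0.407% lower). At 24 months 13 passed, 6 higher and 7 lower, beside 9.7% of all genes (4.27% higher and 5.44% lower). With single libraries left out, the counts were 12 to 17 at 3, 0 to 4 at 14 and 7 to 20 at 24 months, with 4 without F_14 PBS replicate 5, 8 without F_24 LPS replicate 1 and 7 or 20 without F_24 PBS replicates 2 or 3. The 4 other members of the SIBLING family, the bone matrix proteins encoded next to Spp1, were not in the table.

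Of the 12 receptor genes 6 were in the table, and the one with the most calls was Cd44, the hyaluronan receptor that also binds osteopontin. Cd44 was at 7.5 ± 2.65 in F_03 and rose to 26.6 ± 11.9 in F_16 (log2 difference 1.59, standard error 0.33, limma adjusted p = 0.00359). In males it rose from 9.5 ± 2.65 in M_03 to 38.3 ± 11.2 in M_16 (log2 difference 1.89, standard error 0.24, limma adjusted p = 4.1e-06) and to 25.5 ± 7.72 in M_24 (log2 difference 1.32, limma adjusted p = 0.00142). In F_24 it was at 12.3 ± 2.31 and did not pass (log2 difference 0.69).

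Cd44 also rose after LPS, from 7.5 ± 2.65 to 23.3 ± 3.21 at 3 months (log2 difference 1.56, limma adjusted p = 0.00139) and from 12.3 ± 2.31 to 32.3 ± 16.2 at 24 months (log2 difference 1.19, limma adjusted p = 0.025). At 14 months the log2 difference was 0.46 and did not pass. At 24 months, then, Cd44 rose with LPS while the log2 difference of Spp1 was -0.81, or -0.13 without the LPS mouse at 81.

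The integrin chains did not move as a set. Itgb1 and Itgb5, the more abundant chains at 70.5 and 203 in F_03, passed in none of the 7 comparisons with the oldest groups or LPS, Itgb1 having log2 differences of -0.25 to 0.24 in them. Itgav, the alpha chain shared by several osteopontin-binding integrins, fell from 26.5 ± 3.42 in M_03 to 11.5 ± 2.38 in M_16 (log2 difference -1.15, limma adjusted p = 1.4e-05). In M_24 it was at 20.25 ± 2.22 and did not pass (log2 difference -0.37). Itgb7, a beta chain of leukocyte integrins, rose from 8 ± 2.16 in M_03 to 20 ± 1.83 in M_16 and 23.5 ± 7.77 in M_24. The summed T and NK cell markers were at 48 to 78 in M_03, 225 to 612 in M_16 and 205 to 507 in M_24. The part of other cells in the differences of Cd44 and the integrin chains was not tested. Itga5, best known as the fibronectin receptor chain, rose from 4 ± 0.816 in F_03 to 13 ± 2.58 in F_12 and 16.2 ± 6.72 in F_14 (log2 differences 1.48 and 1.71, in comparisons where 9.07% and 3.31% of all genes passed), and to 13.3 ± 3.79 after LPS at 3 months (log2 difference 1.50, limma adjusted p = 0.00328). Itga5 was at 8 ± 2.45 in F_16 and 6.67 ± 1.53 in F_24 and passed in neither. The 6 other listed chains, Itgb3, Itgb6, Itgb8, Itga4, Itga8 and Itga9, were not in the table.

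**Figure D4:**
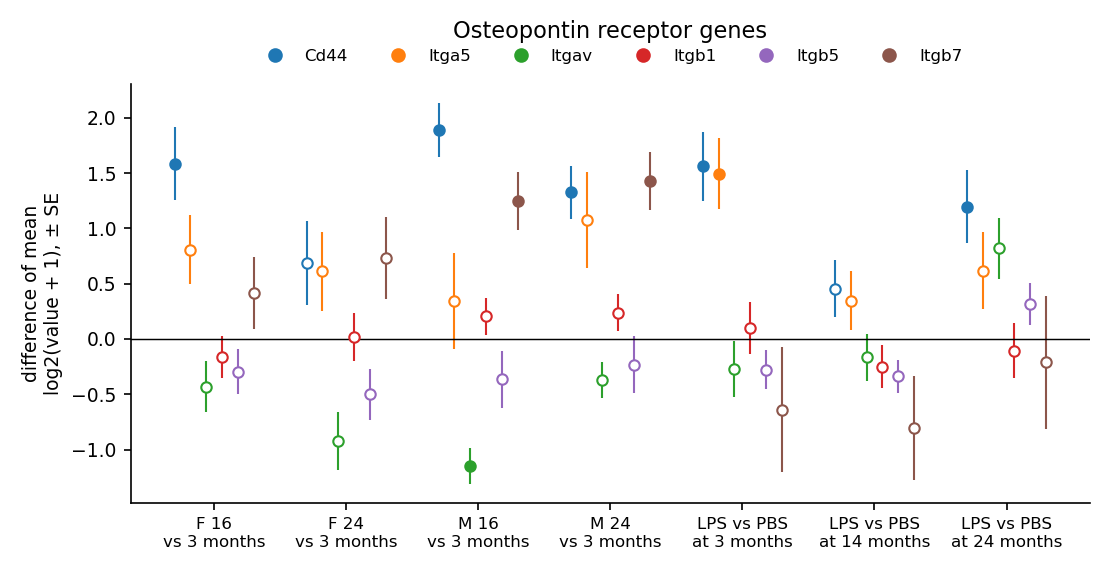
Differences in mean log2(value + 1), with standard errors, of the 6 osteopontin receptor genes in the table for 4 age comparisons and 3 LPS comparisons. Filled points passed the threshold and open points did not. Cd44 lies above 0 in all 7 comparisons and passed in 5 of them.

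Among the enzymes that cut or cross-link osteopontin, 5 of 12 were in the table. Tgm2, a transglutaminase, rose after LPS at all 3 ages: from 17.5 ± 1.73 to 40.7 ± 9.50 at 3 months (log2 difference 1.15, limma adjusted p = 0.00402), from 39.6 ± 13.5 to 71.6 ± 12.2 at 14 months (log2 difference 0.89, limma adjusted p = 0.0269) and from 14 ± 3 to 38.3 ± 10.6 at 24 months (log2 difference 1.37, limma adjusted p = 0.00413). It was the single list member called at 14 months. With age it rose among PBS females to 62.8 ± 34.2 in F_12, 39.6 ± 13.5 in F_14 and 47.2 ± 8.11 in F_16 (log2 differences 1.59, 1.07 and 1.37 against F_03, limma adjusted p = 0.00432, 0.0397 and 0.00424). In males it was at 15 ± 5.89 in M_03 and 44.3 ± 9.22 in M_16 (log2 difference 1.57, limma adjusted p = 0.031). Its course in males was uneven and was not a steady rise with age. Tgm2 was at 9.25 ± 8.77 in M_06, 55.5 ± 11.7 in M_09, 39 ± 2.83 in M_12, 21 ± 14.4 in M_19 and 37.8 ± 17.8 in M_24. None of these passed against M_03. In F_24, the group with the highest Spp1 mean, it was at 14 ± 3 and did not pass (log2 difference -0.32).

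Mmp9, a secreted gelatinase that is also a neutrophil granule gene, rose in males from 13 ± 3.92 in M_03 to 56.3 ± 17.1 in M_16 and 44.8 ± 25.3 in M_24 (log2 differences 2.02 and 1.55). In females it was at 58.3 ± 19.9 in F_03 and 47.3 in F_24, and it fell to 7.33 ± 2.31 after LPS at 3 months (log2 difference -2.79, limma adjusted p = 0.0109). The summed neutrophil markers were at 7034 to 18659 in those 4 PBS libraries and at 2216 to 3822 in the 3 LPS libraries, and in males they were at 2851 to 4751 in M_03 and 9333 to 32279 in M_16. Their part in the Mmp9 differences was not tested. Mmp2, F13a1 and the lysosomal protease Ctsd passed in none of the 7 comparisons, and Mmp3, Mmp7, Mmp12, F2, Plau, Tgm1 and Fam20c were not in the table.

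Of 15 other matricellular genes 6 were in the table. Lgals3, encoding the galectin that marks phagocytic microglia, was at 29 ± 10.4 in M_03 and rose to 107 ± 19.2 in M_16 and 77.3 ± 18.8 in M_24 (log2 differences 1.90 and 1.43, limma adjusted p = 4.7e-06 and 0.000813). In females it was at 37.8 in F_03 and 126 in F_24, a log2 difference of 1.65 that did not pass. Thbs1, encoding thrombospondin 1, rose from 3 ± 1.15 in M_03 to 18 ± 5.48 in M_16 and, after LPS at 24 months, from 3.67 ± 0.577 to 23.7 ± 15.4. Cyr61, a matricellular growth regulator and immediate early gene, went the other way in males, from 38.5 ± 13.2 in M_03 to 2.5 ± 1.29 in M_16 and 4.5 ± 3.70 in M_24 (log2 differences -3.52 and -2.99). In females it was at 29 ± 1.41 in F_03 and 28.7 ± 15.0 in F_24 (log2 difference -0.13). It passed as lower in F_09 and F_14 (-2.23 and -1.92), but not in F_12 or F_16 (-1.35 and -1.17). Lgals1 rose in M_16 (log2 difference 0.62). Not every call is named here. In M_24 2 of the 6 passed as higher and 1 as lower, beside 2.73% and 0.124% of all genes. After LPS at 24 months 1 passed as higher and 1 as lower, beside 4.27% and 5.44% of all genes. Sparc and Tgfbi passed in none of the 7 comparisons.

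Of the 22 integrin and CD44 signalling genes in the table, which act downstream of the receptors, 1 was called in F_16, 0 in F_24, 2 in M_16 and 0 in M_24, where 9.01%, 2.09%, 6.29% and 2.85% of all genes were. After LPS 1, 0 and 1 were called at 3, 14 and 24 months, beside 11.2%, 1.81% and 9.7% of all genes. Each count is within 2 genes of what the share of all genes would give in a list of this length, so no result about the list is read from it. Pik3cg, a phosphoinositide kinase subunit, fell in F_16 and in M_16 (log2 differences -0.61 and -0.68), and Rac2, a small GTPase of blood cells, rose in M_16 (0.70). After LPS the focal adhesion gene Zyx rose at 3 months (1.13) and the kinase gene Lyn at 24 months (0.64). The median log2 difference of this list was -0.11 in F_24 and 0.14 in M_24, with -0.02 and 0.10 for all genes.

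The factors linked to Spp1 transcription gave 16 of 23 genes in the table. With age 3 passed in F_16, all lower, where 6% of all genes passed as lower. In F_24, M_16 and M_24 0 passed, beside 2.09%, 6.29% and 2.85% of all genes, so that about 1 member or none would pass at those shares. The 3 were Jun, from 680 ± 28.3 to 366 ± 78.2, and Fosb, which encode AP-1 subunits, and Ets1 (log2 differences -0.92, -0.91 and -0.75). After LPS, Runx1 rose from 17.3 ± 0.957 to 40.7 ± 5.13 at 3 months and from 15.7 ± 1.53 to 35.7 ± 6.03 at 24 months (log2 differences 1.18 and 1.13, limma adjusted p = 0.00138 and 0.00796). Jun and Fosb fell with LPS at both ages, Jun from 680 ± 28.3 to 370 ± 32.0 at 3 months and from 782 ± 125 to 321 ± 31.3 at 24 months. Spi1, the gene of PU.1, passed in none of the 7 comparisons, with log2 differences of -0.46 to 0.47. After LPS 5 of the 16 passed at 3 months and 5 at 24 months, beside 11.2% and 9.7% of all genes, and 0 passed at 14 months, beside 1.81%.

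The disease-associated microglia genes, of which 28 of 34 were in the table, gave most of the calls with age, and all of those in F_24. In F_16 10 passed and in F_24 8 passed, in M_16 13 and in M_24 12, all of them higher, where 3.01%, 1.56%, 4.52% and 2.73% of all genes passed as higher. The list's median log2 difference was 0.74 in F_24 and 0.46 in M_24. Cst7, encoding the protease inhibitor cystatin F, rose from 10 ± 2.16 in F_03 to 64.7 ± 5.69 in F_24 (log2 difference 2.59, limma adjusted p = 0.00312) and from 8.5 ± 4.20 in M_03 to 47.8 ± 27.3 in M_24 (2.33). Axl, a receptor for dying cells, and Clec7a, encoding the glucan receptor dectin-1, rose in both as well (Axl by 1.67 in each, Clec7a by 1.56 in F_24 and 2.12 in M_24). This list was chosen with results of these data known, so its direction is not independent evidence.

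After LPS at 3 months 6 of the 28 rose, where 6.16% of all genes did, led by the chemokine genes Ccl4 (from 98.5 ± 28.6 to 521 ± 44.9, log2 difference 2.43) and Ccl3 (2.05) and by the inhibitory receptor gene Lilrb4a (2.03), while Cst7 and Clec7a had log2 differences of 0.67 and -0.89 that did not pass. At 24 months 0 rose and 3 fell, where 4.27% of all genes rose and 5.44% fell. The 3 were H2-D1, Trem2 and Ctsb (log2 differences -0.86, -0.60 and -0.59). At 14 months 0 passed, beside 1.81% of all genes, and the list's median difference was -0.05 with 0.02 for all genes.

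To see which genes differed between mice of a group together with Spp1, group means were taken out of log2(value + 1) and each gene was correlated with Spp1 over the 64 libraries. These correlations are a description: libraries share their groups, the batch adjustment and any unevenness of cell composition. The median r of the other 5646 genes was 0.020, and 92.7% lay between -0.3 and 0.3. Above 0.5 were 48 genes, and below -0.5 were 2.

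The gene nearest to Spp1 was Lpl, encoding lipoprotein lipase, which releases fatty acids from lipoproteins (r = 0.73). It was followed by Ifi27l2a, an interferon-induced gene (0.71), Cd52, encoding a small leukocyte surface protein (0.67), the MHC class I gene H2-D1 (0.67), Gm21188 (0.66), Cd72, an inhibitory receptor gene (0.64), Lyz1, a lysozyme gene (0.64), Clec7a (0.64), Cst7 (0.63) and Il2rg, the common cytokine receptor chain gene (0.63). Lyz1 and H2-D1 have near-identical relatives whose reads the counting could have divided, so their values are uncertain. At the other end were Ncs1, a calcium sensor gene (-0.51), Fam110a (-0.51), 0610040J01Rik (-0.45), Ralb, a small GTPase gene (-0.44), and Usp22, a deubiquitinase gene (-0.42).

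The likeness of Lpl was uneven across groups of libraries. Its r with Spp1 was 0.91 in the 26 female PBS libraries, 0.81 in the 11 LPS libraries and 0.38 in the 27 male PBS libraries. Ifi27l2a was more even, at 0.69, 0.91 and 0.65. Over all libraries Spearman's rho was 0.62 for Lpl and 0.69 for Ifi27l2a. Without F_14 PBS replicate 2 and F_16 replicate 2, the 2 libraries in which Spp1 was furthest from its group mean (values 50 and 61), Lpl had r = 0.67 and Ifi27l2a 0.74.

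Over the means of the 17 groups the most similar genes were Cst7 (r = 0.94), Capg, an actin-capping protein gene (0.94), the ribosomal protein gene Rps14 (0.92), Cxcl13, a B cell chemokine gene (0.92), Ifi27l2a (0.92), Cd52 (0.91), Tmsb10, a thymosin gene (0.91), the selenoprotein gene Selenow (0.90), Cd63, a tetraspanin gene (0.89), and Mif, a cytokine gene (0.89). The most opposed were Slc16a6 (-0.90), Klhdc8b (-0.89), Tmem204 (-0.84), Arsb (-0.83) and Golm1 (-0.83). Cst7, Ifi27l2a and Cd52 were the 3 genes in the first 10 by both measures. Rps14 and Mif, by contrast, had r of 0.29 and 0.22 within groups. Arsb had 0.01.

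By list, 26 of the 28 disease-associated genes had an r with Spp1 above 0 within groups, with a median of 0.44, which was 0.56 in female PBS, 0.17 in male PBS and 0.68 in LPS libraries. The 6 receptor genes had a median of 0.09, Cd44 being the highest (0.43) and Itgb5 the lowest (-0.11). The 11 microglia markers had 0 members above 0 and a median of -0.18. Monocyte markers had a median of 0.38, and the 4 T and NK cell markers a median of 0.27 that was 0.55 in female and -0.08 in male PBS libraries. Neutrophil markers had 0.35 in female and -0.17 in male PBS libraries. Border macrophage markers had a median of 0.03, which was 0.15 in female PBS, 0.16 in male PBS and -0.14 in LPS libraries. The part of these cells in the spread of Spp1 between mice was not tested.

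**Figure D5:**
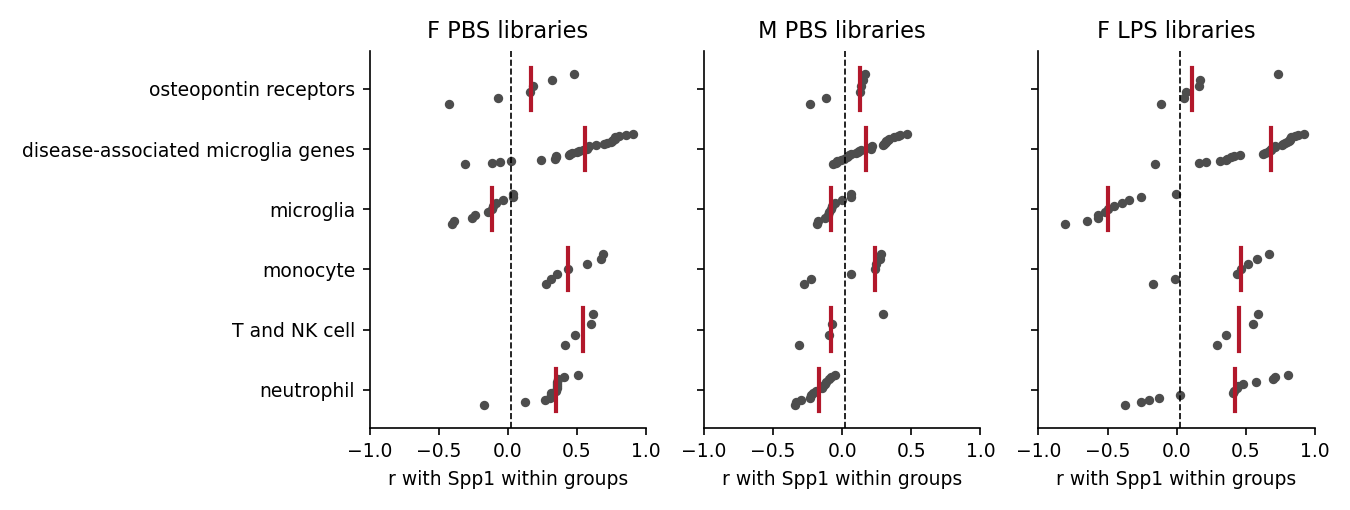
Pearson's r with Spp1 within groups (x axis) for each gene in the table of 6 lists, in female PBS, male PBS and LPS libraries. Points are genes, red bars list medians and dashed lines the median of all genes. Disease-associated genes have medians of 0.56, 0.17 and 0.68, and T and NK cell markers lie above 0 in females and have a median of -0.08 in males.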

How the data were processed

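RNA from sorted microglia was amplified from its poly(A) tail and sequenced. Per the labels and the study's methods, reads were mapped to mm10 by HISAT2 (version 2.0.4), aligned to coding genes by Bowtie2 (version 2.2.5) and quantified by RSEM (version 1.2.12), and FPKM were adjusted for batch with ComBat_seq over all samples. Genes averaging under 10 FPKM were left out by the authors, and the batches themselves are not given in the sources used here. The deposited values are treated as a score, since they are batch-adjusted FPKM, nearly all in whole numbers. They are not counts, the depth is unknown and no counting interval can be given. No scaling was added.

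The 64 libraries were grouped by their labels. Python 3.11.15 and limma 3.58.1 in R 4.3.3 (trend, moderated variance) were used on log2(value + 1), on which folds of low genes are understated, in 4 fits: female PBS, male PBS, LPS with its PBS groups, and both sexes at 6 shared ages. P-values were adjusted by Benjamini-Hochberg over 5647 genes, with a threshold of 0.05 on the adjusted p together with more than 1.5-fold. Libraries are separate mice. The script was tested on simulated data. Differences of LPS responses between ages and of the age change between sexes were planned as tests and are given without one for Spp1, since they are built from the contrasts that chose it.

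Of the microglia markers, 1 is not reported here and was left out of the list. The gene, the lists and the tests were chosen with earlier results of these data known. Named genes were the 10 highest and 5 lowest by r within groups and over group means, all receptor, enzyme and matricellular genes in the table, and up to 4 passing members of the other lists per comparison. Replicate numbers of the sample titles showed no pairing in the median of residual correlations (female PBS r = 4.26e-05, male PBS r = -0.0044). Single pairs of male PBS libraries with the same number ran from -0.32 to 0.40. The submitters' library names carry other numbers for some libraries, and pairing by those was not checked. Alternatives were other pseudocounts (0.5 and 5), genes with a mean of at least 50, median-ratio scaling, equal totals, other variance models, only the compared groups, a replicate block, and leaving out each library. For the differences of Spp1, but not for the lists, libraries with or without values between 0 and 1 only were also used. Sequences and motifs are from RefSeq (GRCm38.p6), exons from GENCODE vM21.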

Additional observations from a re-analysis of the deposited data

How the results depend on the processing

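The described Spp1 differences kept their direction under every alternative that was run. With each library left out in turn they ranged from 3.16 to 3.96 for F_16 and 4.17 to 4.48 for F_24 against 3 months, 2.50 to 3.06 for M_16, 2.09 to 3.05 for M_24, 1.75 to 2.35 for LPS at 3 months, -1.45 to -0.62 at 14 months and -1.40 to -0.13 at 24 months (log2). The drop in LPS response ranged from -3.46 to -2.63 from 3 to 14 months and from -3.41 to -2.14 from 3 to 24 months, and the male minus female change from -2.22 to -1.27.

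Of the tested differences, M minus F at 3 months passed with only the compared groups (0.77, limma adjusted p = 0.0403), a p-value not independent of the choice of the gene. M minus F at 16 months reversed with equal totals (-0.062) and without F_16 replicate 1, F_16 replicate 2 or M_16 replicate 4 (-0.41 to 0.39 over all libraries left out). LPS-treated 14 against 3 months ranged from -0.0032 to 0.64, reversed without F_03 LPS replicate 1. The other left-out ranges were 0.90 to 2.17 for LPS-treated 24 against 3 months, and for M minus F 0.63 to 0.96 at 3, 0.10 to 0.25 at 6, -1.89 to -0.69 at 9, -1.26 to -0.39 at 12 and -1.45 to -0.49 at 24 months. The fit with a replicate block changed no call on Spp1 (LPS-treated 24 against 3 months 1.50, limma adjusted p = 0.495).

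List counts fell among genes with a mean of at least 50, by construction, to 9 in F_16, 12 in M_16, 9 in M_24, 9, 0 and 7 for LPS at 3, 14 and 24 months. With only the compared groups they were 20 in F_24, 0 for LPS at 14 and 6 at 24 months, with equal totals 0 at 14 months, and at an unadjusted p 22, 7 and 24 in these. With libraries left out they ranged from 11 to 17 in F_16, 3 to 11 in F_24, 20 to 23 in M_16, 14 to 16 in M_24, 12 to 17, 0 to 4 and 7 to 20 for LPS. Counts moved by over 1.5 times without F_03 PBS replicates 1 (5) or 2 (4), F_24 PBS replicates 1 (4) or 2 (3), F_14 PBS replicates 1 (2), 2 (0), 3 (0) or 5 (4), F_14 LPS replicates 3, 4 or 5 (0 each), F_24 LPS replicate 1 (8) and, for LPS at 24 months, F_24 PBS replicates 2 (7) or 3 (20).

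Of the 10 genes most like Spp1, 5 were kept among genes with a mean of at least 50, 6 by Spearman's rho, 6 in female PBS, 1 in male PBS and 2 in LPS libraries alone, and 6 to 10 with libraries left out (6 without F_16 replicate 2 or F_24 LPS replicate 2). Libraries of 1 kind, with or without values between 0 and 1, gave no value for F_16 against 3 months and for M minus F at 12 and 24 months or its change, since the groups share no such kind. The causes were not tested.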
